A study of Mus musculus with 24 samples.

Results

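Replication-dependent histone genes were described in RNA of extracellular vesicles from mouse plasma. The members were all rows of the count table whose symbol began with Hist1h, Hist2h, Hist3h or Hist4h, 68 of 21960 genes, and they fell into 6 H1, 19 H2A, 18 H2B, 12 H3 and 13 H4 genes. Of these, 65 had at least 1 count and 48 had enough counts to be tested among 4112 genes. The 3 members without a count were Hist1h2aa and Hist1h2ba, known as testis-type genes, and Hist1h2al, a pseudogene in the annotation.

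Male C57BL/6J mice underwent bile duct ligation, which blocks the outflow of bile and leads to cholestatic liver injury, or sham surgery, the control operation, and were killed 8 or 15 days later. Each of the 4 groups (ligated day 8, sham day 8, ligated day 15, sham day 15) held 6 animals with 1 library each. Vesicles were precipitated from plasma, so the RNA was a mixture from unknown source cells, and fewer vesicles from a cell type could not be told apart from less of an RNA in each vesicle. The sources used here do not give the animals' age. The tissue label read liver although the protocol described plasma vesicles, and transcripts of 20 hepatocyte markers together made up 0.00541% to 0.0178% of counts in the sham libraries and 0.0449% to 2.57% in the ligated ones.

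Core histones H2A, H2B, H3 and H4 form the protein spool of the nucleosome, and linker histone H1 binds the DNA between nucleosomes. The replication-dependent genes lie in clusters, are switched on together in S phase of the cell cycle and supply the bulk of histone for newly copied DNA. Their mRNAs usually end in a conserved stem-loop bound by the protein SLBP instead of a poly(A) tail, and they decay rapidly when DNA synthesis stops. Some members also give longer polyadenylated transcripts in cells that no longer divide. The libraries were made without poly(A) selection, so both kinds of transcript could enter them.

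In the mouse annotation (GENCODE M21, GRCm38), 66 members were found by identifier, with 53 on chromosome 13, 10 on chromosome 3, 2 on chromosome 11 and 1 on chromosome 6. A stem-loop of 16 bases, made of 6 paired bases, a loop of 4 bases and the matching 6 bases, was found after the stop codon of 44 members. The search accepted only stem-loops that began with GG, paired perfectly and had T first in the loop, so part of their likeness was set in advance. The letters of the stem-loop came in 8 versions. The version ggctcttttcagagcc was the most common, in 24 members, and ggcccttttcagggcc was held by 7 H4 genes. The stem-loops of some of the members described below, from all 5 classes, are shown 5′ to 3′ with the stem-loop in capitals:
Hist1h1c, chr13:23739507-23739532, plus strand: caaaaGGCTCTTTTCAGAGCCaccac
Hist1h1e, chr13:23621777-23621802, minus strand: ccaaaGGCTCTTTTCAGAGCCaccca
Hist1h2ab, chr13:23751567-23751592, plus strand: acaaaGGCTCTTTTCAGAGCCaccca
Hist2h2aa2, chr3:96239779-96239804, minus strand: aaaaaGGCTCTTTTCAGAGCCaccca
Hist1h2bb, chr13:23747198-23747223, plus strand: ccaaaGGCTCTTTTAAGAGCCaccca
Hist1h2bk, chr13:22036295-22036320, plus strand: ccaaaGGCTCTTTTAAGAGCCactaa
Hist1h3b, chr13:23752815-23752840, plus strand: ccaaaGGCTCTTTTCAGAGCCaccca
Hist1h3e, chr13:23561898-23561923, minus strand: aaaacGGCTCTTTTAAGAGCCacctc
Hist1h4c, chr13:23698084-23698109, minus strand: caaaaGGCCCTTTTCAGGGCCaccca
Hist1h4h, chr13:23531453-23531478, plus strand: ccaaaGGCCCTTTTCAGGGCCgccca
Hist1h4b, chr13:23757361-23757386, plus strand: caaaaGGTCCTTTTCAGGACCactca
The annotated transcript ended within 100 bases after the stem-loop in 22 members, ran on past it in 22 and held no such stem-loop in 21. Most of these 21 are annotated only to the stop codon or a few bases past it, so no stem-loop could be found there. Hist1h1b, Hist1h4k and Hist1h3h, for example, have 0 annotated bases after it. Hist1h1c ran on for 840 bases, Hist1h1e for 1153 and Hist1h4c for 454. No stem-loop was found in the annotated transcript of Hist1h2bc, an H2B gene on chromosome 13 (23684199 to 23692908, plus strand).

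Short motifs were looked for in the promoters. RefSeq start sites on GRCm38.p6 were matched for 59 members, and each window from 250 bases before to 50 bases after the start was searched on both strands. CCAAT, the letters of the CCAAT box, was present in 50 of 59 members (84.7%) against 37.4% of 32851 promoters. It was in all 5 H1, 18 H2A, 14 H2B and 10 H3 windows, and in 3 of 12 H4 windows. TATAA, the core of the TATA box, was present in 48 of 59 (81.4%) against 24.9% of all promoters. ATTTGCAT, the octamer that is known from H2B promoters, was present in 7 H2A and 5 H2B windows, 12 of 59 in all (20.3%), against 1.74% of all promoters. Windows of neighbouring genes on opposite strands can overlap, so that a single site counts for both genes. The octamer was shared in this way by Hist1h2ae and Hist1h2bg, by Hist1h2ah and Hist1h2bk, and by Hist1h2aa and Hist1h2ba. The windows are therefore not all separate, for the other motifs as well. The 150 bases upstream of 3 members that behaved differently in the libraries are shown, with these motifs in capitals on whichever strand they lie. At day 15 Hist1h4c passed the test of ligated against sham. Hist1h2bb had a lower fitted level after ligation, like most other members, and Hist1h1c, the member with most counts, had not:
Hist1h4c, chr13:23698459-23698608, minus strand: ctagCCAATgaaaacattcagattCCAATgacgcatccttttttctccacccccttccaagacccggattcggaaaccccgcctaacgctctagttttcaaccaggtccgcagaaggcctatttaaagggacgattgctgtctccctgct
Hist1h2bb, chr13:23746584-23746733, plus strand: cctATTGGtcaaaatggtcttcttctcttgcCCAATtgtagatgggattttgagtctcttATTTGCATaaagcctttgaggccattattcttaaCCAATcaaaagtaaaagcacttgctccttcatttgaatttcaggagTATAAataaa
Hist1h1c, chr13:23738657-23738806, plus strand: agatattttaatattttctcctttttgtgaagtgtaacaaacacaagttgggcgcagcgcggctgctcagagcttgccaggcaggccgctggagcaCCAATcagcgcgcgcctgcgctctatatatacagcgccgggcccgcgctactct

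Library totals ran from 101733 to 937963 counts, and the histone members had 36660 counts over the 24 libraries, 459 to 4389 in each. Counts in predicted genes with Gm symbols made up 31.3% of the ligated day 8 library 3, 12.5% of the ligated day 15 library 2 and 7.43% of the ligated day 15 library 1, and 0.244% to 3.07% of the others. The tested members held 96.1% of the histone counts and Hist1h1c alone held 13%. Gene copies were hard to tell apart: over all windows of 75 bases in a member's annotated exons, the median member had 56% that occurred in no other gene, 28 members had under 50%, and Hist2h2aa2 and Hist2h3c1 had 0%. Values of single near-identical copies are therefore uncertain, and sums over a class are given beside them. Libraries 2 and 3 of the day 15 sham group stood apart in histone RNA, and the main results at day 15 are given with and without them.

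Histone RNA made up 0.185% to 0.664% of all counts in 22 libraries, 0.855% in sham library 2 of day 15 and 1.01% in sham library 3 of day 15. At day 8 the share was 0.26%, 0.371% and 0.664% (lowest, median, highest) after ligation and 0.315%, 0.391% and 0.54% after sham surgery. At day 15 it was 0.185%, 0.27% and 0.448% after ligation and 0.228%, 0.443% and 1.01% after sham surgery. The groups overlapped at both days. The mean at day 8 was 0.403% ± 0.149 (SD, n = 6) after ligation and 0.402% ± 0.0932 (SD, n = 6) after sham surgery. At day 15 it was 0.289% ± 0.0926 (SD, n = 6) after ligation and 0.564% ± 0.301 (SD, n = 6) after sham surgery, and 0.38% ± 0.104 (SD, n = 4) after sham surgery without libraries 2 and 3.

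**Figure D1:**
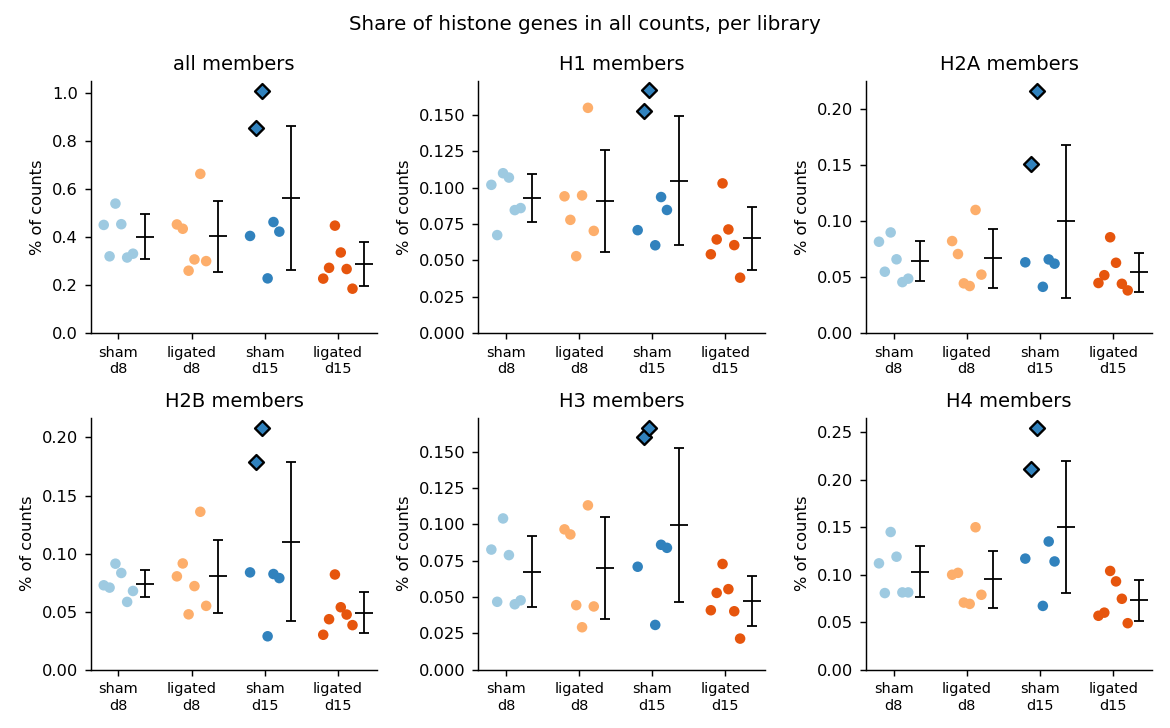
Percent of all counts in histone members, for all members and for each class; the y axes start at 0 and differ between panels. Points are libraries of the 4 groups (d8, day 8; d15, day 15), outlined diamonds are sham libraries 2 and 3 of day 15, and bars are the mean ± SD of 6 libraries. The diamonds lie above every other library in each panel except H1, where library 5 of the ligated day 8 group (0.155%) lies between them.

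All 5 classes were high in these libraries. H1 genes, which code for linker histones, made up 0.153% and 0.167% of counts in sham libraries 2 and 3 of day 15 and 0.0604% to 0.0936% in the other 4 sham libraries of that day. H2A genes made up 0.151% and 0.216% against 0.0413% to 0.0658%, and H2B genes 0.179% and 0.208% against 0.0288% to 0.0838%. H3 genes made up 0.16% and 0.166% against 0.0308% to 0.0859%, and H4 genes 0.211% and 0.255% against 0.0672% to 0.135%. In the ligated day 15 libraries the medians were 0.0625% for H1, 0.0482% for H2A, 0.0455% for H2B, 0.0468% for H3 and 0.0674% for H4. Among the day 15 sham libraries, library 4 was the lowest in every class.

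The classes kept similar proportions while the total varied. Over the 24 libraries H4 took 25.6% ± 2.2 of the histone counts, H1 22.1% ± 3.31, H2B 18.6% ± 2.61, H2A 17.1% ± 2.08 and H3 16.7% ± 2.89 (SD, n = 24). In sham library 3 of day 15 H1 was at its lowest proportion, 16.5%, and H2A at its highest, 21.3%. Library 4 of the ligated day 8 group had the highest H1 proportion, 30.8%, the highest H2B proportion, 23.4%, and the lowest H3 proportion, 9.52%.

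**Figure D2:**
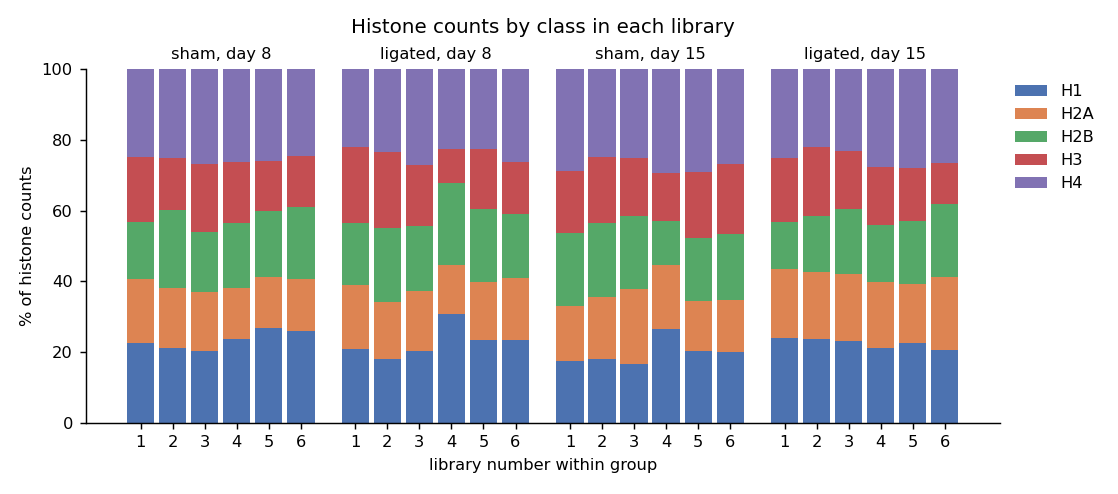
Percent of each library's histone counts that fell to H1, H2A, H2B, H3 and H4 genes. Bars are the 24 libraries, numbered within their group; H4 took 22.1% to 29.4% in every library and H1 16.5% to 30.8%.

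Gene by gene the same libraries led. Levels are given as normalised CPM, counts per 1e6 of the effective library size over tested genes. Of the 48 tested members, 43 had their highest level of 24 libraries in sham library 2 or 3 of day 15, against 11.6% of all 4112 tested genes. Both libraries were among the 3 highest for 31 members, against 3.62% of all tested genes. The 5 members with their highest level elsewhere were Hist1h1c, Hist1h2bc, Hist1h2ai, Hist1h2ad and Hist2h2aa2, a set named after its values were seen. These libraries were the subject of the choice to show them apart, so the counts describe them and are not a test.

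**Figure D3:**
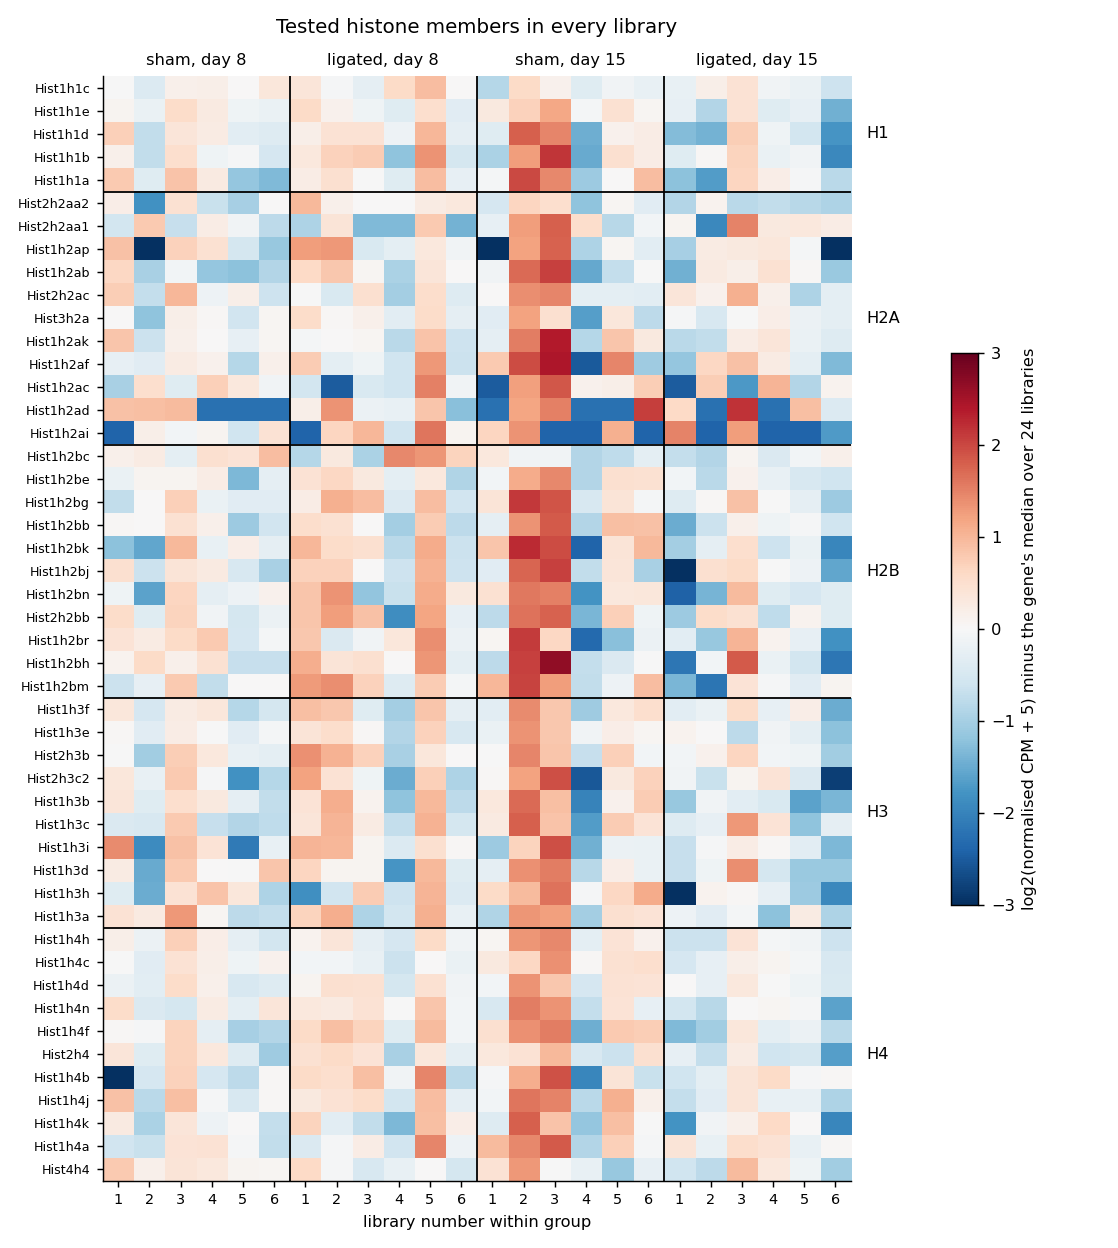
Level of the 48 tested members (rows, by class) in the 24 libraries (columns, by group), as log2(normalised CPM + 5) minus each gene's median over the libraries; red is above the median and blue below. Columns 2 and 3 of the day 15 sham group are red in nearly all rows, and Hist1h2bc is an exception.

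Per kilobase of annotated exon the members with the highest mean levels were Hist1h4h (453 normalised CPM per kb), Hist1h4n (409), Hist1h1c (325), Hist2h2aa2 (305) and Hist1h4c (231). In H2B the highest were Hist1h2bb (172), then Hist1h2bg and Hist1h2bk (149 each), and in H3 Hist2h3b (199), Hist1h3b (133) and Hist1h3e (131). Hist1h4n had only 16.6% of its windows to itself and Hist2h2aa2 none, so these ranks hold for the counting as deposited. They also rest on the annotated exon length, which was 312 bases for Hist1h4k and 7425 for Hist1h1d. Without division by length Hist1h2bc had the highest mean level in H2B, 166 normalised CPM.

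The question of the study, what bile duct ligation changes in circulating vesicle RNA, was tested at each day with edgeR's quasi-likelihood test over all 4112 genes, and a gene was called at a Benjamini-Hochberg adjusted p under 0.05. At day 8 no histone member was called in either direction, against 3.14% of all tested genes, and none had an unadjusted p under 0.05 either, against 14.3%. With the replicate number as a block 3 members had an unadjusted p under 0.05, all higher after ligation, against 10.9% of all genes in that direction. Without sham libraries 2 and 3 of day 15, which share the estimate of spread, 2 had, both higher, against 9.97%. No member was called in either fit, against 4.91% and 3.79% of all genes. DESeq2 called no member, against 4.52% of all genes. The log2 fold change (ligated over sham) was above 0 for 41 of 48 members, against 52.5% of all genes, with a median of 0.31 against 0.02 for all genes. The class medians were 0.31 for H1, 0.39 for H2A, 0.45 for H2B, 0.29 for H3 and 0.24 for H4. Library 5 of the ligated group, with the highest histone share of that day, weighed on this: without it the median was 0.09 and 27 of 48 members were above 0. The TMM normalization factors were 0.667 to 1.02 in the ligated and 1.02 to 1.16 in the sham libraries of day 8. As a share of all counts the group means were 0.403% and 0.402%. With library totals in place of TMM no member was called, against 3.23% of all genes. In that fit 1 member had an unadjusted p under 0.05 and was lower, against 18.8% of all genes. None was higher, against 4.69%.

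The members farthest from 0 at day 8 did not pass the test. Hist1h2ab, an H2A gene, had levels of 28.8, 71.6 and 109 (lowest, median, highest) after ligation and 23.1, 29.3 and 95.6 after sham surgery, and these ranges overlapped. Its log2 fold change was 0.89 (SE 0.52, adjusted p = 0.447, edgeR). Hist1h4b was at 0.88 (SE 0.49) and Hist1h2ad at 0.72 (SE 1.07). The lowest values were -0.45 (SE 0.36) for Hist4h4, -0.29 (SE 0.50) for Hist2h2aa1 and -0.28 (SE 0.20) for Hist1h4c. Since Hist2h2aa1 and Hist2h2aa2 share windows, their sum is given too: it was 211, 290 and 395 after ligation and 178, 228 and 300 after sham surgery. Both also share windows with Gm20634, which overlaps Hist2h2aa1 on the same strand and is not in the sum.

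At day 15 nearly all members had a lower fitted level after ligation than after sham surgery, and a single member passed the test. The log2 fold change was below 0 for 47 of 48 members, against 51.6% of all tested genes, with a median of -0.82 against -0.02 for all genes. An unadjusted p under 0.05 was reached by 21 members, all lower, against 9.07% of all genes in that direction. Called lower was 1 member, Hist1h4c, against 1.07% of all genes, and no member was called higher, against 3.48%. Without sham libraries 2 and 3 the median was -0.20, 31 of 48 members were below 0 (against 52.3% of all genes), 3 had an unadjusted p under 0.05, all lower (against 10% of all genes in that direction), and none was called lower (against 1.82%). DESeq2 called 7 members lower with all libraries, against 1.53% of all genes. No member had all 6 ligated libraries below all 6 sham libraries, against 0.803% of all genes.

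Hist1h4c, an H4 gene on the minus strand of chromosome 13 (23697635 to 23698454), was the called member. Its levels at day 15 were 122, 156 and 198 (lowest, median, highest) after ligation and 179, 243 and 457 after sham surgery. Sham library 3 gave the 457 and sham library 2 the 270, and the other 4 sham libraries lay between 179 and 248. Only the lowest sham library and the upper ligated ones overlapped. The log2 fold change was -0.76 (SE 0.20, adjusted p = 0.024, edgeR), and without sham libraries 2 and 3 it was -0.52 (SE 0.19, adjusted p = 0.106, edgeR). At day 8 its levels were 110, 157 and 176 after ligation and 137, 181 and 237 after sham surgery, which overlapped. Averaged over both days it was lower, with a log2 value of -0.52 (SE 0.14, adjusted p = 0.0177, edgeR), and at -0.41 (SE 0.13, adjusted p = 0.0339, edgeR) it passed the test without the 2 sham libraries as well, where 4.6% of all genes were called lower. About 83.1% of its windows occurred in no other gene.

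The other H4 genes had wider spreads. Hist1h4h had levels of 117, 147 and 249 after ligation and 151, 228 and 519 after sham surgery at day 15, with 473 and 519 in sham libraries 2 and 3. Its log2 fold change was -0.88 (SE 0.29, adjusted p = 0.0798, edgeR), and -0.35 (SE 0.27) without these libraries. Hist1h4n had 47.5, 127 and 160 after ligation and 92.6, 168 and 456 after sham surgery, with 456 and 401 in the same libraries, and its log2 fold change moved from -0.97 (SE 0.35) to -0.23 (SE 0.30). In both genes the 4 other sham libraries overlapped the ligated ones.

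The linker histone genes had log2 values from -1.17 to 0.02. Hist1h1c, which codes for H1.2 and is known to be expressed outside S phase as well, had levels of 314, 431 and 649 after ligation and 266, 428 and 721 after sham surgery at day 15, and the groups overlapped throughout. Its log2 fold change was 0.02 (SE 0.22), the only value above 0 with all libraries, and 0.27 (SE 0.23) without sham libraries 2 and 3. Hist1h1c was at 721 and 525 in those libraries, against 266 to 447 in the other 4 sham libraries. Hist1h1e, which codes for H1.4, had 60.2, 139 and 234 after ligation and 165, 226 and 389 after sham surgery. Its log2 fold change was -0.84 (SE 0.26, adjusted p = 0.0647, edgeR), and -0.60 (SE 0.27) without sham libraries 2 and 3. Its annotated exons overlap Hist1h2be on the same strand, so part of its counts could belong to that gene. Hist1h1b, which codes for H1.5 and had all of its windows to itself, reached 128 and 241 in sham libraries 2 and 3 against 14.5 to 73.2 in the other 4 sham libraries and 9.51 to 83.0 after ligation.

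The H2A and H2B genes named here were spread over a wide range. Hist1h2bb had 22.9, 57.1 and 83.0 after ligation and 37.6, 142 and 278 after sham surgery, and its log2 fold change was -1.27 (SE 0.40, adjusted p = 0.07, edgeR) with all libraries and -0.75 (SE 0.42) without sham libraries 2 and 3. Hist1h2bk had 9.51, 37.0 and 75.8 after ligation and 5.79, 102 and 261 after sham surgery, with -1.68 (SE 0.55) and -0.87 (SE 0.57). Hist1h2bg moved from -1.08 (SE 0.42) to -0.16 (SE 0.39). In each of the 3 genes sham library 4 was the lowest sham library, inside the range of the ligated libraries for Hist1h2bb and Hist1h2bg and below all of them for Hist1h2bk. Hist1h2bm, an H2B gene whose identifier was not in the annotation, was at -1.52 (SE 0.55) and -0.93 (SE 0.61). Among the H2A genes Hist1h2ap was at -0.60 (SE 0.67) with all libraries and at 0.55 (SE 0.73) without sham libraries 2 and 3. Hist1h2ad was at -0.08 (SE 0.98) and 0.43 (SE 1.17), and Hist2h2aa2 at -0.62 (SE 0.33) and -0.23 (SE 0.34). The sum of Hist2h2aa1 and Hist2h2aa2 was 199, 217 and 390 after ligation and 205, 233 and 605 after sham surgery, with 522 and 605 in sham libraries 2 and 3.

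Hist1h2bc, an H2B gene with no stem-loop in its annotated transcript, was not high in these libraries. It had 137 and 136 in sham libraries 2 and 3 of day 15, within the 78.2 to 185 of the other 4 sham libraries and close to the 77.7 to 165 of the ligated ones, and its log2 fold change at day 15 was 0.00 (SE 0.35). Its highest levels were in libraries 4 to 6 of both day 8 groups, 199 to 410, against 73.9 to 185 in the other 18 libraries. In the same 6 libraries the 14 platelet markers made up 0.551% to 1.16% of counts, against 0.113% to 0.339% in the other 18. These 6 were also the most deeply sequenced, with 535737 to 937963 counts. The part of platelet RNA and of depth in the level of Hist1h2bc was not tested.

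All 10 tested H3 genes had log2 values below 0, from -1.69 to -0.57. Hist1h3h had the lowest log2 value of the tested members, with levels of 37.6, 70.6 and 130 after sham surgery and 0, 23.7 and 42.1 after ligation, and the groups overlapped in the lowest sham and the highest ligated values. Its log2 fold change was -1.69 (SE 0.52, adjusted p = 0.0617, edgeR), and -1.45 (SE 0.58) without sham libraries 2 and 3. Only 6.53% of its windows were its own. Hist1h3b was at -1.44 (SE 0.47) and -0.90 (SE 0.50), Hist1h3e at -0.79 (SE 0.30) and -0.35 (SE 0.29), and Hist2h3b at -0.57 (SE 0.38) and -0.13 (SE 0.40), each given with all libraries and without sham libraries 2 and 3.

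**Figure D4:**
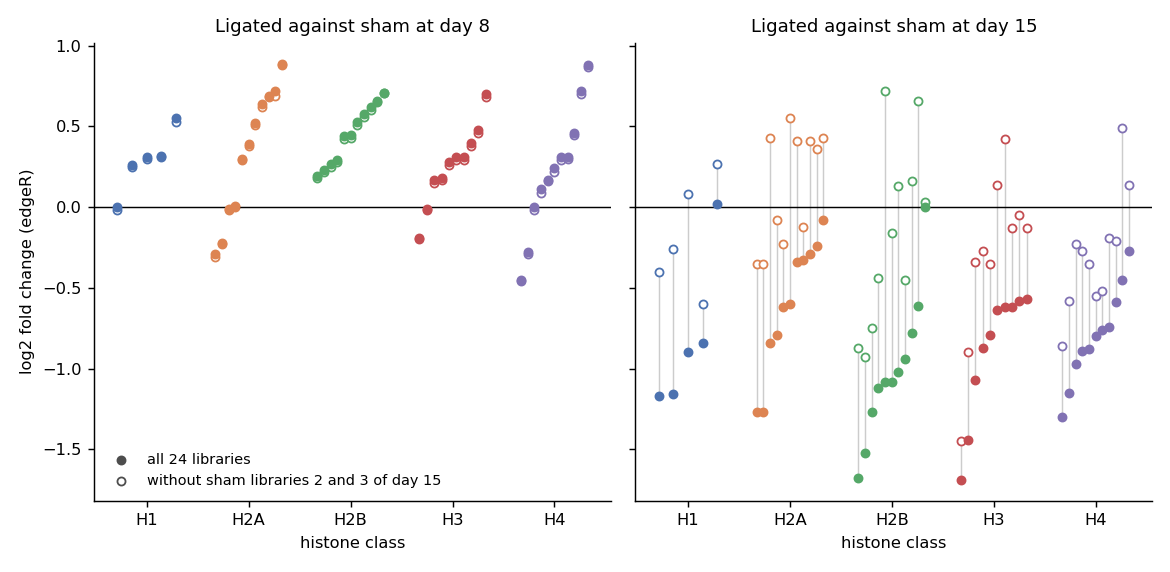
Log2 fold change of ligated over sham for the 48 tested members by class, at day 8 (left) and day 15 (right); each pair of symbols joined by a grey line is 1 gene. Filled points use all libraries and open points leave out sham libraries 2 and 3 of day 15, which moved the median at day 15 from -0.82 to -0.20.

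Medians by annotated mRNA end and by class are given as a description of day 15. The median log2 fold change was -0.86 in the 16 tested members whose annotated transcript ends within 100 bases after the stem-loop. It was -0.79 in the 17 that run on and -0.89 in the 13 with no stem-loop in the annotation. Most of these 13 are annotated hardly past the stop codon, so they are not a class of mRNAs known to lack the stem-loop. Without sham libraries 2 and 3 these medians were -0.14, -0.21 and -0.13. The 27 tested members with at least 50% of windows to themselves had a median of -0.79 and the 19 with fewer had -0.84, and without sham libraries 2 and 3 they had -0.19 and -0.23. By class the medians were -0.90 for H1, -0.60 for H2A, -1.08 for H2B, -0.72 for H3 and -0.80 for H4. Without the 2 sham libraries they were -0.26, 0.36, -0.16, -0.20 and -0.27, so that the H2A median changed sign.

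The difference of the ligation effect between the days was tested as an interaction. No member was called, and no gene of the 4112 was (0%). DESeq2 called no member either, against 0.0243% of all genes. An unadjusted p under 0.05 was reached by 19 members, all with a lower value at day 15, against 3.57% of all genes in that direction, and by 2 without sham libraries 2 and 3, against 3.06%. The median difference was -1.20, and -0.52 without those libraries, against -0.04 for all genes in both cases. For Hist1h4c it was -0.48 (SE 0.28, adjusted p = 0.907, edgeR), and -0.23 (SE 0.25) without those libraries.

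Between the days within a surgery group no member was called, against 4.35% of all genes after ligation and 0% after sham surgery. After sham surgery day 15 was above day 8 for 45 of 48 members, against 51.9% of all genes, with a median log2 fold change of 0.68, and 14 had an unadjusted p under 0.05, all higher, against 4.64% of all genes. Without sham libraries 2 and 3 the median was 0.09 and none had an unadjusted p under 0.05, against 5.67% of all genes that were higher. After ligation day 15 was below day 8 for 43 of 48 members, against 53.4% of all genes, with a median of -0.51 against -0.035 for all genes, and 5 had an unadjusted p under 0.05, all lower, against 9.68%. These comparisons share groups with those above, so they are not separate evidence. Averaged over both days the median of ligated over sham was -0.29 with 1 member called lower (Hist1h4c) against 3.5% of all genes, and 0.03 without sham libraries 2 and 3.

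Genes that act with the histones in dividing cells were read from the same fit. Of 26 genes of S phase and proliferation, 11 were tested. At day 15 Mcm7 and Mcm3, subunits of the replicative helicase, fell after ligation, against 1.07% of all genes called lower, and none rose. The log2 value of Mcm7 was -1.62 (SE 0.39, adjusted p = 0.0118, edgeR) and that of Mcm3 -1.89 (SE 0.48, adjusted p = 0.0166, edgeR); without sham libraries 2 and 3, Mcm7 alone of the 11 was called, at -1.51 (SE 0.43), and Mcm3 was at -1.37 (SE 0.51). Mki67, the proliferation marker Ki-67, had -1.04 (SE 0.43, adjusted p = 0.179, edgeR), and Top2a, a topoisomerase of dividing cells, had -0.92 (SE 0.49, adjusted p = 0.331, edgeR). At day 8 none was called. The median of the list was 0.26 at day 8 and -0.56 at day 15, and -0.07 at day 15 without the 2 sham libraries.

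These genes were high in the same sham libraries. The list made up 0.0969% and 0.164% of counts in sham libraries 2 and 3 of day 15, against 0.0266% to 0.0773% in the other 22, and 8 of its 11 tested genes had their highest level there. Mki67 reached 261 and 414 normalised CPM against 34.9 to 158 in the other 22 libraries, and Top2a 88.5 and 105 against 11.4 to 63.9. The tested genes with their highest level elsewhere were Pcna, Rrm2 and Mcm7, named after their values were seen. Pcna stood at 66.4 and 61.8, inside the 10.6 to 100 of the other 22 libraries. Rrm2 stood at 35.4 and 67.9 inside 0 to 78.9, and Mcm7 at 75.2 and 55.6 inside 6.48 to 89.7. The 14 neutrophil genes made up 0.427% and 0.337% against 0.0122% to 0.225%, with 6 of 8 tested genes highest there and none of the 14 at 0 over the group. Mpo, a granule enzyme of the list with too few counts to be tested, stood at 88.5 and 98.8 against 0 to 46.3 elsewhere, while Ltf, another granule protein, stood at 133 and 136, inside the 0 to 179 of the other libraries; both were named after their values were seen. Erythroid genes made up 12.6% and 6.82% against 4.27% to 16.2% and platelet genes 0.302% and 0.16% against 0.113% to 1.16%, both inside the range of the others. Lymphocyte genes (0.0125% and 0.0312% against 0.0112% to 0.0375%), hepatocyte genes (0.00973% and 0.0134% against 0.00541% to 2.57%) and heart and muscle genes (0.0681% and 0.0178% against 0.00541% to 0.12%) were inside it too. The part of immature blood cells in the histone level of these 2 libraries was not tested.

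**Figure D5:**
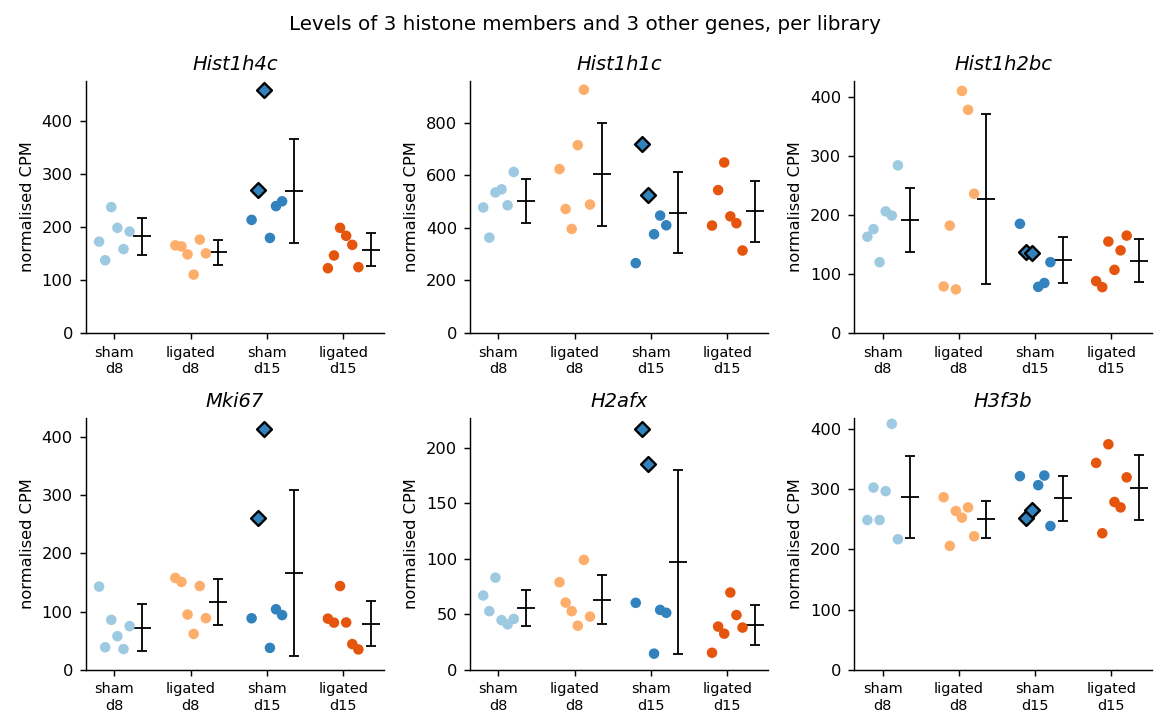
Normalised CPM of 3 histone members (top) and of Mki67, H2afx and H3f3b (bottom) in every library; axes start at 0, points are libraries, outlined diamonds are sham libraries 2 and 3 of day 15 and bars are the mean ± SD of 6 libraries. Hist1h4c, Mki67 and H2afx are highest in the diamonds, while Hist1h2bc and H3f3b are not.

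Histone variants made outside S phase were not called at either day. Of 18 such genes listed, 8 were tested, and none was called at day 8, at day 15 or at day 15 without sham libraries 2 and 3. H3f3b, which codes for H3.3, stood at 252 and 266 normalised CPM in sham libraries 2 and 3 of day 15, within the 206 to 409 of the other 22, and its log2 fold change at day 15 was 0.08 (SE 0.17), and -0.02 (SE 0.19) without these libraries. H2afz, which codes for H2A.Z, stood at 137 and 136 within 35.2 to 141, with 0.40 (SE 0.29) and 0.73 (SE 0.31). H2afx, which codes for H2A.X and is known to give a stem-loop mRNA in S phase besides a polyadenylated one, was above that range, with 217 and 185 against 14.5 to 99. H1f0, a linker histone variant, was below it in library 2 and above it in library 3, with 17.7 and 105 against 23.9 to 84.5. Both were named after their values were seen. Of the 8 tested variants 2 had their highest level in one of these libraries. The variants together made up 0.123% and 0.144% of counts in the 2 libraries and 0.0648% to 0.141% in the others.

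Among genes that make, process or remove histone mRNA, Xrn1 and Zcchc6 rose. Of 31 such genes 14 were tested and 2 were called at day 15, both higher after ligation, against 3.48% of all genes called higher. They were Xrn1, the 5′ to 3′ exonuclease of the cytoplasm, at 1.51 on the log2 scale (SE 0.30, adjusted p = 0.00199, edgeR), and Zcchc6, which adds uridines to RNA ends, with 0.87 (SE 0.22, adjusted p = 0.0178, edgeR). Without sham libraries 2 and 3 both were still called, at 1.65 (SE 0.35) and 0.98 (SE 0.24). Both enzymes also act on many other RNAs. The median of the list was -0.12, and -0.10 without these libraries. Slbp, the stem-loop binding protein, had 177 counts in all and was not tested; it stood at 22.1 and 12.4 normalised CPM in sham libraries 2 and 3 of day 15 against 7.7 to 57.4 elsewhere. Of 23 histone chaperone genes 13 were tested, and none was called at either day, with medians of -0.07 at day 8 and -0.32 at day 15, the latter also without sham libraries 2 and 3.

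Genes of other cell types also differed between the groups. Of all tested genes 2.77% were called higher and 0.365% lower at day 8, and 3.48% and 1.07% at day 15. Without sham libraries 2 and 3 of day 15 these shares were 3.4% and 0.389% at day 8 and 3.94% and 1.82% at day 15. Of 14 tested erythroid genes 9 rose at day 8 (median log2 fold change of the list 1.26, among them Alas2 at 1.29). At day 15 none was called and the median was 0.20, but without sham libraries 2 and 3 of that day 4 were called higher and the median was 0.56. Of 8 tested neutrophil genes 3 rose at day 8 (Lcn2 at 2.99). At day 15 none was called and the median was -0.44, but without the 2 sham libraries 2 were called higher and the median was 0.82. These 2 libraries had the highest neutrophil shares of all 24, 0.427% and 0.337%. Library 2 also had the highest erythroid share of the day 15 sham libraries, 12.6%. Leaving out high sham libraries raises ligated over sham by itself, so the calls without them are a description and not a test. Of 17 hepatocyte genes 14 rose at day 8 and 17 at day 15, with and without the 2 sham libraries (Apob at 6.59 and 7.21), while 2 of 7 heart and striated muscle genes fell at day 8 (Actc1 at -2.54), and 1 without the 2 sham libraries. No platelet gene of 14 and no lymphocyte gene of 3 was called between ligated and sham at either day, with or without the 2 sham libraries. Averaged over both days, 2 of the 3 lymphocyte genes were called lower after ligation, with and without these libraries. Between the days, 7 of the 14 platelet genes were called lower at day 15 after ligation, also in both fits. After sham surgery no platelet gene was called, but all 14 were lower at day 15 with an unadjusted p under 0.05 (edgeR). The platelet share was high only in the deep libraries 4 to 6 of both day 8 groups, at 0.551% to 1.16%. In the other 18 libraries, of either day, it was 0.113% to 0.339%. The part of depth in this difference between the days was not tested. The part of these shifts in the histone values was not tested.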

How the data were processed

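RNA of plasma extracellular vesicles from 24 mice was sequenced in paired 75-base reads without ribosomal depletion or poly(A) selection, per the labels' protocols. The authors deposited expected counts per gene, all whole numbers; STAR and RSEM were used per the submitters' processing notes, which name the human build hg38 although the identifiers are mouse Ensembl genes. The build is therefore not established, and coordinates come from GENCODE M21 (GRCm38) and RefSeq. RSEM divides reads among similar genes.

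Genes passing filterByExpr (minimum count 10) were fitted in R 4.3.3 with edgeR 4.0.16 (limma 3.58.1): TMM factors, 4 groups, 1 estimate of spread from all 24 libraries, quasi-likelihood tests and Benjamini-Hochberg adjustment over 4112 genes, checked on simulated counts. DESeq2 1.42.0 and the other alternatives are given in the closing section. Standard errors are the log2 fold change divided by the square root of F. Libraries share replicate numbers across surgeries, and the labels do not say that these pair animals. The deviations of same-numbered libraries correlated at 0.165 to 0.327 at day 8 and -0.031 to 0.113 at day 15. All 6 correlations were over 0.1 at day 8 and 1 of 6 was at day 15. The same-numbered sham library was the best match for 3 of 6 ligated libraries at day 8 and for 1 of 6 at day 15. Libraries 4 to 6 of both day 8 groups were also the deepest, so pairing could not be told apart from depth there.

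Named genes were the called members, the 3 members of each class with the highest level per kb, the 3 largest increases and decreases at each day, and up to 3 called genes per contrast of each other list with Slbp, H2afz, H3f3b, Mki67 and Top2a. Members, lists and the 2 libraries shown apart were chosen with earlier results of these data known.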

Additional observations from a re-analysis of the deposited data

Results flagged for a closer look

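Among 112 sets of 6 libraries (4 groups for each named member, the total and each class), 4 held a library far from the other 5 by Dixon's criterion; chance alone marks about 1 in 20 sets. Hist1h4c stood at 457 normalised CPM in sham library 3 of day 15, with the other sham libraries of that day at 179 to 270. Hist1h2bm stood at 34.3 in sham library 3 of day 8, with the others at 8.65 to 17.8. Hist2h2aa2 stood at 344 in ligated library 1 of day 8 (others 174 to 219) and at 188 in ligated library 2 of day 15 (others 88.7 to 102). In the last of these its near-copy Hist2h2aa1 was at its lowest, 22.7, and the sum of both, 211, lay within the 199 to 390 of the group; in the day 8 library the sum, 395, was the highest of the group.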

How the results depend on the processing

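Each count of members is followed by the percent of all tested genes called in the same direction. Members called at day 15, all lower, numbered 1 as reported (1.07%), 7 with DESeq2 (1.53%), 13 with library totals in place of TMM (4.18%, with the median of all genes at -0.22), 20 without a filter on low counts (0.722%), 2 with at least 5 counts in at least 6 libraries (0.666%), and 0 without sham libraries 2 and 3 (1.82%). Leaving out each library in turn gave 0 to 13, with 13 without sham library 4 (1.41%), 6 without ligated library 3 (1.07%), 2 without sham library 1 (1.07%), and 0 without sham library 3, ligated library 1 or ligated library 6. Adding the replicate number as a block gave 5 lower at day 15 (1.73%), 2 lower averaged over both days (4.64%) and 0 at day 8; no block could be made for the comparisons between days, since numbers are shared only within a day. At day 8 the members called were 2 without a filter, 1 higher (1.41%) and 1 lower (0.187%), and 1 higher with the 5-count filter (1.26%). Averaged over both days those called lower were 4 with library totals (15.1%), 5 without a filter (1.2%) and 1 to 2 with each library left out. Without a filter 7 members were called lower for the difference between days (0.155%), 8 lower for day 15 against day 8 after ligation (1.47%) and 4 higher after sham surgery (0.203%); fitting the compared groups alone gave 1 lower after ligation (1.46%), and leaving out each library gave 0 to 1.

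The mean histone share rose when Lars2, which took 31.6% to 52.7% of counts, was left out of the total, to 0.728% (ligated) and 0.779% (sham) at day 8 and 0.561% and 1.1% at day 15, and without hemoglobin genes too, to 0.915%, 0.895%, 0.643% and 1.31%. At day 15 the sham mean was higher under both; at day 8 the order varied. With each library left out it ran from 0.351% to 0.432% and 0.374% to 0.419% at day 8 and from 0.257% to 0.31% and 0.475% to 0.631% at day 15.

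Of the 26 log2 fold changes named, 5 changed sign at day 15 without sham libraries 2 and 3: Hist1h1b to 0.08, Hist2h2aa1 to 0.41, Hist1h2ap to 0.55, Hist1h2ad to 0.43 and Hist1h2bc to 0.03. Hist1h2bc was 0.00 with the replicate block, and Hist1h1c -0.16 with library totals. With each library left out Hist1h1c ran from -0.10 to 0.20, Hist2h2aa1 from -0.68 to 0.05, Hist1h2ad from -0.92 to 0.67, Hist1h2bc from -0.14 to 0.16, and Hist1h4c from -0.87 to -0.57, no longer called in 4 of 12 refits.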
